A study of Homo sapiens with 36 samples.

Results

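Dexamethasone still changed chromatin accessibility in BT549 cells whose SWI/SNF ATPases were inhibited, but at few places. The libraries described here are the 4 of the group DEX+BRM014 and the 4 of the group BRM014, 8 of the 36 ATAC-seq libraries of the series. Peaks of these 8 libraries that overlapped were merged into 102409 regions on chromosomes 1 to 22 and X, of 259704 regions formed in the same way from all 36 libraries. A region was counted as present in a library when a peak of that library overlapped it by at least 1 bp. Regions present in all 4 DEX+BRM014 libraries and no BRM014 library were called gained, and there were 346 of them, 0.338% of the 102409. Regions present in all 4 BRM014 libraries and no DEX+BRM014 library were called lost, and there were 152, 0.148%. With at least 3 of 4 libraries against 0 of 4, 1101 regions (1.08%) were gained and 814 (0.795%) were lost.

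Dexamethasone is a synthetic ligand of the glucocorticoid receptor (NR3C1), a nuclear receptor that enters the nucleus when bound and attaches to response elements, most of them far from gene starts. SWI/SNF complexes move and evict nucleosomes with the energy of ATP, through the ATPase BRG1 (SMARCA4) or BRM (SMARCA2), and the receptor is known to recruit them at many of its sites. BRM014 inhibits both ATPases. ATAC-seq inserts sequencing adapters with the Tn5 transposase into open chromatin, so a peak marks an accessible stretch of DNA.

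All groups were wild-type BT549, which the labels class as triple-negative breast cancer. The DEX+BRM014 cells received 500 nM DEX and 10 µM BRM014 for 4 h, and the BRM014 cells 10 µM BRM014 for 4 h without DEX. The other 28 libraries served as outside measurements. DMSO and DEX+DMSO (4 h with or without 500 nM DEX, 4 libraries each) carried the solvent in place of the inhibitor. The groups siCtl_Veh, siCtl_DEX, siGATA6_Veh and siGATA6_DEX (3 libraries each) were transfected with a control siRNA or with siRNA against GATA6 for 72 h and received vehicle or 500 nM DEX for 2 h. The groups siCtl_only and siBRG1+siBRM (4 libraries each) were transfected with control siRNA or with siRNA against both ATPases, without DEX. The labels call the libraries of a group biological replicates, each of one cell line, so the tests measure the spread between cultures of that line.

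The cell type was checked at marker genes. Of 8 genes marking a mesenchymal mammary line, 7 (VIM, CDH2, AXL, CAV1, SPARC, CD44 and TWIST1) had a peak in all 8 libraries, and ZEB1 had one in 3 DEX+BRM014 and 2 BRM014 libraries. The hormone receptor genes ESR1 and PGR, the luminal factor GATA3 and the basal keratin KRT5 had none in any of the 8. The luminal factor FOXA1 and the receptor tyrosine kinase gene ERBB2 had a peak in all 8, and the epithelial adhesion genes EPCAM and CDH1 each had one in 1 BRM014 library and no DEX+BRM014 library. Of markers of other cell types, 8 of 12 leukocyte, 6 of 11 endothelial and 4 of 10 neural genes had no peak in any of the 8, and 3 leukocyte, 3 neural and 0 endothelial genes had one in all 8.

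The called regions were the far corners of a continuous grid. The DEX+BRM014 libraries held 64198, 56993, 50979 and 49906 peaks (55519 ± 6573, SD, n = 4), and the BRM014 libraries 51607, 60716, 60995 and 41026 (53586 ± 9441, SD, n = 4). These ranges overlapped (difference 1933 peaks, two-sided exact permutation p = 0.8, n = 4 per group). Of the 102409 regions, 30025 were present in all 8 libraries, 18934 in 1 DEX+BRM014 library alone and 17587 in 1 BRM014 library alone. Just outside the gained list lay 755 regions present in 3 DEX+BRM014 libraries and no BRM014 library, and 577 present in 4 and 1. Just outside the lost list lay 662 regions present in 3 BRM014 libraries and no DEX+BRM014 library. The same cells without the inhibitor gave more calls, since 2530 of 166810 regions (1.52%) were gained and 729 (0.437%) lost between DEX+DMSO and DMSO.

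**Figure D1:**
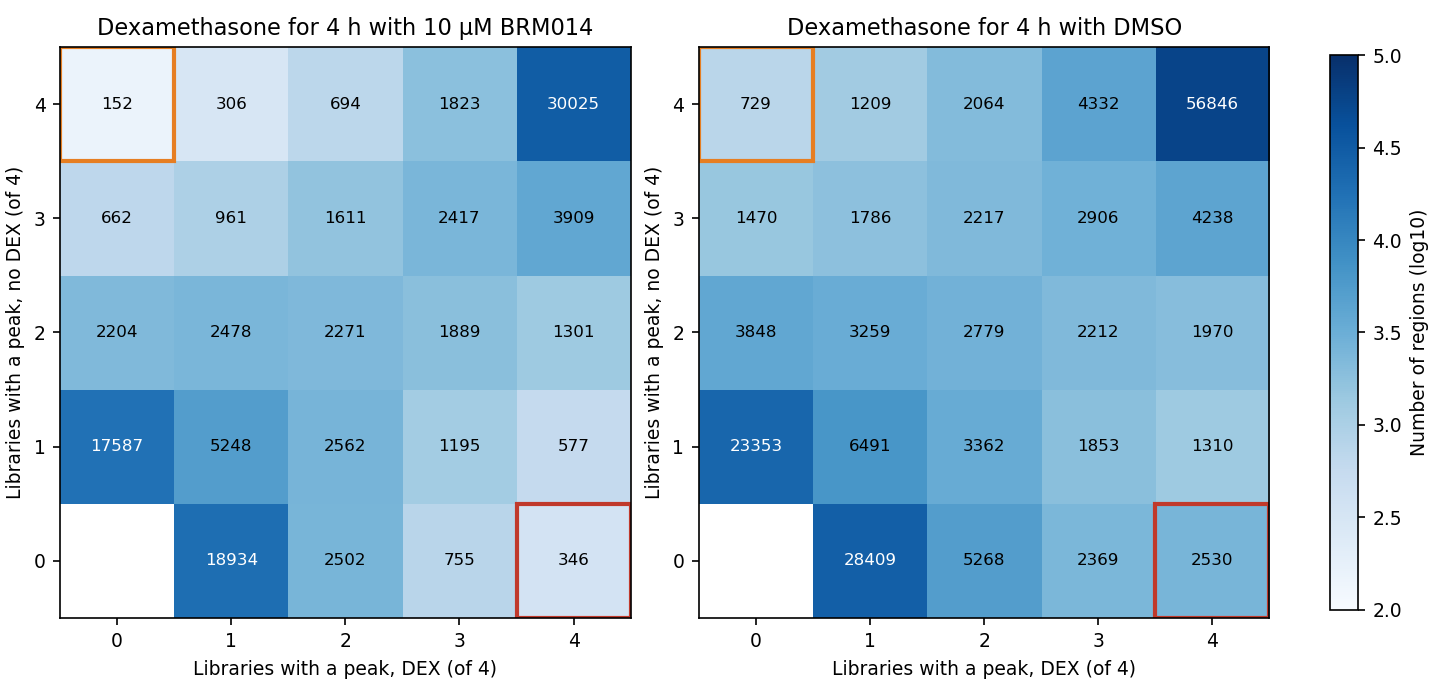
Number of regions by how many of 4 libraries with DEX (horizontal axis) and of 4 without DEX (vertical axis) held a peak, with BRM014 at left and DMSO at right, coloured on a log10 scale. The red squares mark the gained regions (346 and 2530) and the orange squares the lost regions (152 and 729).

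The balance between gained and lost regions rested on single libraries. BRM014 replicate 4 had the fewest peaks of the 8 libraries, 41026, without a lower background level, the number of reads expected by the peak caller, which was recovered from its fold and p-values as a measure of relative depth. That level was 0.299 in BRM014 replicate 4, 0.267, 0.299 and 0.235 in the other BRM014 libraries, and 0.236, 0.278, 0.287 and 0.319 in the DEX+BRM014 libraries. It is a rough measure, since it rested on only 14.6% of the weak peaks examined in BRM014 replicate 4. The share was 63.0% in BRM014 replicate 3, 68.4% in DEX+BRM014 replicate 1 and 13.5 to 17.8% in the others. Without BRM014 replicate 4 there were 370 gained and 627 lost regions, so that the lost regions outnumbered the gained ones. Without DEX+BRM014 replicate 4, which had 49906 peaks, the counts were 644 and 206. Leaving out BRM014 replicate 2 or 3 or DEX+BRM014 replicate 3 gave 610, 531 and 599 gained regions, and leaving out BRM014 replicate 1 or DEX+BRM014 replicate 1 gave 248 and 310 lost regions. When the same number of best peaks was kept from every library, 291 regions were gained and 236 lost.

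Most called regions lay away from gene starts. Of the gained regions 88.7% were more than 1000 bp from the nearest annotated start, with a median distance of 15853 bp, and of the lost regions 91.4%, with a median of 30888 bp. Over all 102409 regions the share was 74.2% and the median 9312 bp. The share of all peaks that were distal was 64.2 ± 2.37% in the DEX+BRM014 libraries and 63.7 ± 3.19% in the BRM014 libraries (SD, n = 4, two-sided exact permutation p = 0.857). Within 1000 bp of a start there were 39 gained and 13 lost regions. Few lay in clusters, since 28 gained regions (8.09%) and 9 lost regions (5.92%) had another of their kind within 50 kb. By chromosome, the gained share ran from 0.105% of regions on chromosome 19 to 0.497% on chromosome 18. The lost share was highest on chromosome 13, at 0.385%.

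Promoters were reached by few of these regions. The RefSeq promoter table (GRCh38.p14, 250 bases before to 50 bases after a start) held 22132 windows of protein-coding genes, of which 5 were overlapped by a gained region and 4 by a lost one. The called regions outside these windows were not searched for motifs here. The upstream 250 bases of 4 of them are printed 5′ to 3′ on the gene's strand, with the bases inside the called region in capitals, to show where in a promoter the calls fell. The gene ICA1 encodes an islet autoantigen (minus strand, chr7:8262168-8262417), DNAJC12 a co-chaperone (minus strand, chr10:67838189-67838438) and ATG13 an autophagy initiation factor (plus strand, chr11:46617303-46617552). These 3 promoters were overlapped by gained regions. The lost region lay at NPLOC4, an adaptor of the VCP segregase (minus strand, chr17:81566603-81566852).
ICA1: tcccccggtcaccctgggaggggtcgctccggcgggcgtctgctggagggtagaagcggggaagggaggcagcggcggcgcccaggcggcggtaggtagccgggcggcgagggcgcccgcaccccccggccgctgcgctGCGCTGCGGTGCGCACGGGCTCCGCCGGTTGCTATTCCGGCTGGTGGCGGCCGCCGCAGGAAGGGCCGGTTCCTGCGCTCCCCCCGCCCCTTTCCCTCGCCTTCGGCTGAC
DNAJC12: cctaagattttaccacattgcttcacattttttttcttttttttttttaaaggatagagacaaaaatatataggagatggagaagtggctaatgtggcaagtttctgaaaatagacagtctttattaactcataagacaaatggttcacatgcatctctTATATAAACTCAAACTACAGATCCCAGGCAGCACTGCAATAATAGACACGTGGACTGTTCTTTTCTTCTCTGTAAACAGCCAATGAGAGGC
ATG13: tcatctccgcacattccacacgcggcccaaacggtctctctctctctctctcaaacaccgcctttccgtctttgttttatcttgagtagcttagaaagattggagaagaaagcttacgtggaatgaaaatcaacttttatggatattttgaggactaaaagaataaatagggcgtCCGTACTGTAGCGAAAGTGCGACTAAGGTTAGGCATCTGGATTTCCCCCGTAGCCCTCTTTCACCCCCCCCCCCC
NPLOC4: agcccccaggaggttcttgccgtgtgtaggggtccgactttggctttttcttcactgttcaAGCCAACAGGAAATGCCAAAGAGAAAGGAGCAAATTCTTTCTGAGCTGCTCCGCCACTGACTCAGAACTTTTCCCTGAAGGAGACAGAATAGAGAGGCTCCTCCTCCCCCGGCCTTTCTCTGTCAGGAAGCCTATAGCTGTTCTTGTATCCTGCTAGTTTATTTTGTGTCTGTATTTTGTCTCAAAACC

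The capitals ran up to the start site in each of the 4. The full glucocorticoid response element, searched as GNACA and TGTNC with 3 bases between them, a motif that reads the same on both strands, was in none of the 9 overlapped windows, which belong to 7 genes, and in 65 of the 22132 windows (0.294%). The AP-1 motif TGANTCA, also searched on both strands, occurred in 1 of the 4 windows of lost regions, that of NPLOC4, where it lay within the capitals, and in 6.15% of all windows. The TEAD motif GGAATG, likewise on both strands, occurred in 1 of the 5 windows of gained regions, that of ATG13, which held 2 matches outside the capitals, and in 12.2% of all windows. The regions over the ICA1 and NPLOC4 promoters were also present in all 4 DMSO and all 4 DEX+DMSO libraries, and that over DNAJC12 in 3 of each. The ATG13 region was present in no DMSO and 1 DEX+DMSO library.

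Regions that dexamethasone had opened in the absence of the inhibitor gave the first measure that was independent of the rule, because they were chosen from the DMSO and DEX+DMSO libraries alone. Of these 2530 regions, 13.4, 10.6, 7.71 and 6.36% held a peak in DEX+BRM014 replicates 1 to 4 (9.51 ± 3.13%, SD, n = 4). In the BRM014 libraries the shares were 1.74, 3.36, 2.61 and 0.474% (2.05 ± 1.24%). Every DEX+BRM014 library lay above every BRM014 library, and the difference was 7.46 percentage points (two-sided exact permutation p = 0.0286, the smallest that 4 against 4 allows, adjusted p = 0.0457 over 8 tests). Over all regions of the DMSO arm the shares overlapped, at 29.5 ± 2.68% in DEX+BRM014 and 28.5 ± 4.65% in BRM014 libraries. Without BRM014 replicate 4 the difference was 6.94 points (exact permutation p = 0.0571, adjusted p = 0.0762, 4 against 3 libraries). With regions chosen without DMSO replicate 2, 3 or 4 it was 7.23, 7.38 and 7.16 points (exact permutation adjusted p = 0.0571).

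Most of the 2530 regions were not seen with the inhibitor. A total of 2006 (79.3%) held a peak in no DEX+BRM014 library, 278 in 1, 117 in 2, 66 in 3 and 63 in 4. Of the 63, 47 were also absent from every BRM014 library. More DEX+BRM014 than BRM014 libraries held a peak in 470 regions, and fewer in 56. The same counts over all regions of the DMSO arm are not given here. Per DEX+BRM014 library, 29.5 ± 2.68% of all those regions held a peak, against 9.51 ± 3.13% of the 2530 (SD, n = 4).

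The regions kept under the inhibitor stood higher in the peak lists of uninhibited cells. Each peak was given its percentile among the peaks of its own library by the peak caller's p-value, with 100 the strongest. The median percentile of the 47 kept regions was 64.0, 58.1, 58.5 and 55.6 in the 4 DEX+DMSO libraries, and that of the 2006 regions in no DEX+BRM014 library was 39.4, 35.2, 36.3 and 33.9. Split into 5 equal classes of 506 regions by mean percentile, the strongest class held 27 of the 47 and the weakest held 1. In the strongest class 24.9, 19.8, 16.6 and 11.7% of regions had a peak in the DEX+BRM014 libraries, against 0.593, 1.78, 1.58 and 0.198% in the BRM014 libraries. Even there, 63.8% were in no DEX+BRM014 library, compared with 85.2% of the weakest class. Strong peaks are also easier to detect in a library, and the part of detection in this gradient was not tested.

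**Figure D2:**
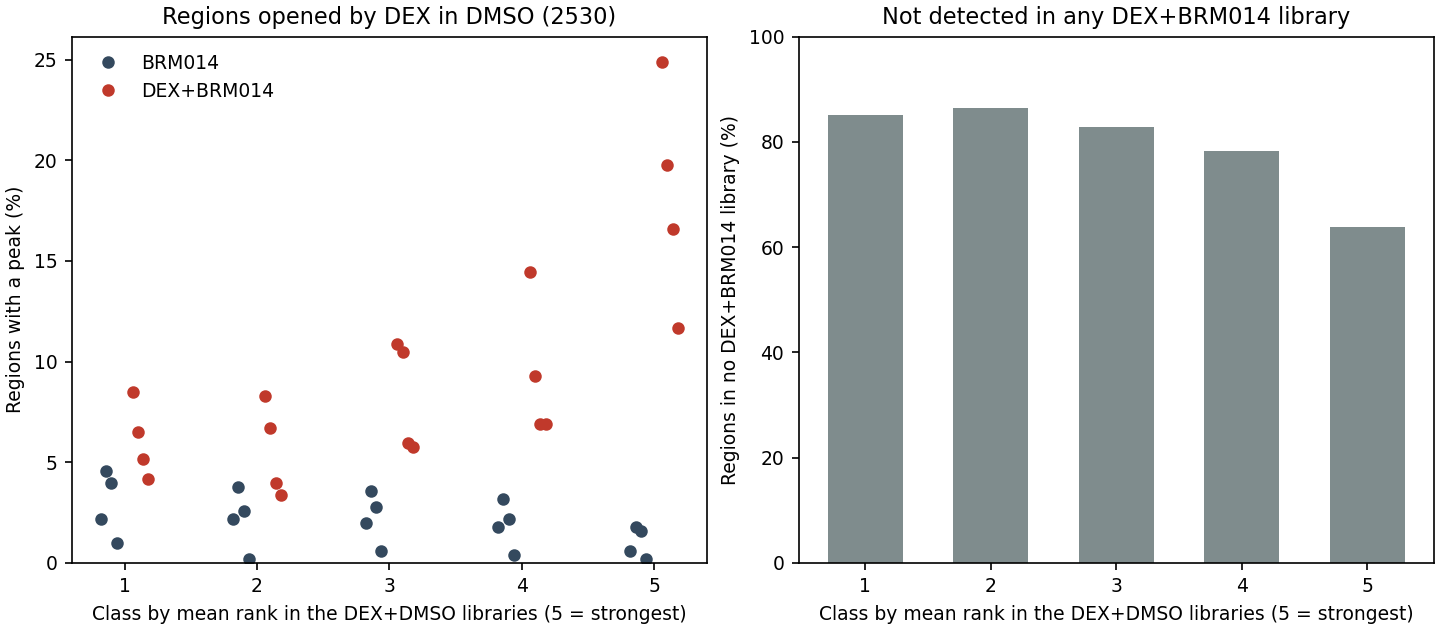
Regions opened by DEX in DMSO, in 5 classes of 506 regions by mean rank in the DEX+DMSO libraries. At left, each point is the percentage of a class with a peak in 1 BRM014 (dark) or DEX+BRM014 (red) library, reaching 24.9% in the strongest class. At right, bars give the percentage in no DEX+BRM014 library, 85.2% in the weakest and 63.8% in the strongest class.

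Kept and missing regions lay side by side among the strongest. The best-ranked kept regions lay 81.3 kb from VAPA, a protein of endoplasmic reticulum contact sites (chr18:10041101-10041596, mean percentile 94.2 in DEX+DMSO), and 24.0 kb from KLF9, which encodes a Krüppel-like transcription factor (chr9:70438447-70438897, 92.3). The others of the 10 best lay nearest to GALNT15, ZBTB8B, ZNF217, LEKR1, TK2, AHCY, CDC7 and BCAR3, with mean percentiles from 91.4 down to 74.3. All 10 were present in 3 of 3 siCtl_DEX and 0 of 3 siCtl_Veh libraries. The best-ranked regions missing from every DEX+BRM014 library lay 115 kb from the phosphatase gene PTPN1 (chr20:50395219-50395701, 93.9), inside the laminin gene LAMA3 (chr18:23725676-23726192, 91.7) and 89653 bp from the cell cycle inhibitor gene CDKN2B (chr9:22098621-22099312, 91.1). The other 7 lay nearest to HAS2, PKD1L1, CCND3, THRB, DUSP4, ELMO3 and SLC26A3, at 86.9 down to 81.3. All 10 missing regions were present in 3 of 3 siCtl_DEX libraries, but those nearest PTPN1, PKD1L1, CCND3 and ELMO3 were also in 2, 1, 3 and 3 siCtl_Veh libraries. A region strong in uninhibited cells was therefore found in both outcomes. Of the 47 kept regions, 37 (78.7%) had also opened at 2 h in siCtl cells, that is, were in 3 of 3 siCtl_DEX and no siCtl_Veh libraries, compared with 1361 of the 2530 (53.8%). Over all 166810 regions of the DMSO arm the share was 2.22%. Among all 63 regions in 4 DEX+BRM014 libraries it was 61.9%, and among the 66 in 3 it was 45.5%. For the 16 of the 63 that were also in a BRM014 library it was 12.5%. The 78.7% thus rests in part on absence from the BRM014 libraries.

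Regions that dexamethasone had closed in DMSO gave overlapping groups. Of the 729, the DEX+BRM014 libraries held 7.68, 6.58, 3.43 and 3.84% and the BRM014 libraries 8.51, 13.2, 12.2 and 4.12%. The difference was -4.12 points (two-sided exact permutation p = 0.114, adjusted p = 0.152, n = 4 per group). With equal numbers of best peaks the difference was -1.71 points and the groups did not overlap (exact permutation adjusted p = 0.0333, n = 4), and without BRM014 replicate 4 it was -5.91 points (exact permutation adjusted p = 0.0457, 4 against 3).

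The reverse question was how the 346 gained regions behaved in libraries that did not choose them, and the direction was the same. It used the libraries of the same arms with their roles exchanged, so the comparisons are not independent of each other. The gained lists of both arms overlapped in 42 cases, and 50 of the 346 were in all 4 DEX+DMSO and no DMSO library. In DMSO cells 57.2, 61.0, 61.3 and 64.5% of them held a peak, and in DEX+DMSO cells 87.9, 86.4, 88.2 and 84.7%. All DEX+DMSO libraries lay above all DMSO libraries, by 25.8 points on average (61.0 ± 2.96% to 86.8 ± 1.59%, SD, n = 4, two-sided exact permutation p = 0.0286, adjusted p = 0.0457). The 2271 regions present in 2 DEX+BRM014 and 2 BRM014 libraries were used as a balanced comparison. Set against them, the difference was 25.1 points (exact permutation p = 0.0286, adjusted p = 0.0457, n = 4 per group). Without DMSO replicate 2, 3 or 4 the first difference was 25.8, 25.9 and 27.0 points and the second 23.9, 25.7 and 25.0 points (exact permutation adjusted p = 0.0571 for each, 4 against 3 libraries).

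At 2 h the same direction was seen in cells with either siRNA. In siCtl cells 70.2, 67.3 and 71.1% of the gained regions held a peak with vehicle and 92.8, 94.2 and 96.2% with DEX, a difference of 24.9 points. In siGATA6 cells the shares were 65.6, 65.6 and 71.7% with vehicle and 93.4, 92.2 and 92.8% with DEX, a difference of 25.1 points. In both the groups did not overlap, and the two-sided exact permutation p of 0.1 (adjusted p = 0.12 over 6 tests, n = 3 per group) is the smallest that 3 against 3 allows. The difference between these effects of DEX was -0.29 points (permutation test of the interaction, p = 0.910, n = 3 per group).

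The 152 lost regions moved less in the other experiments. The share with a peak was 92.6 ± 1.64% in DMSO and 83.6 ± 2.79% in DEX+DMSO libraries (SD, n = 4), a difference of -9.05 points without overlap (two-sided exact permutation p = 0.0286, adjusted p = 0.0457). Without DMSO replicate 2, 3 or 4 it was -8.99, -9.21 and -8.33 points (exact permutation adjusted p = 0.0914). At 2 h the differences were -4.39 points in siCtl cells (exact permutation p = 0.1, adjusted p = 0.12, n = 3) and -3.95 points in siGATA6 cells, where the groups overlapped (exact permutation p = 0.2, n = 3). Most lost regions thus had a peak in each of these libraries, with or without DEX. Of the 152, 108 were in all 8 libraries of the DMSO arm.

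**Figure D3:**
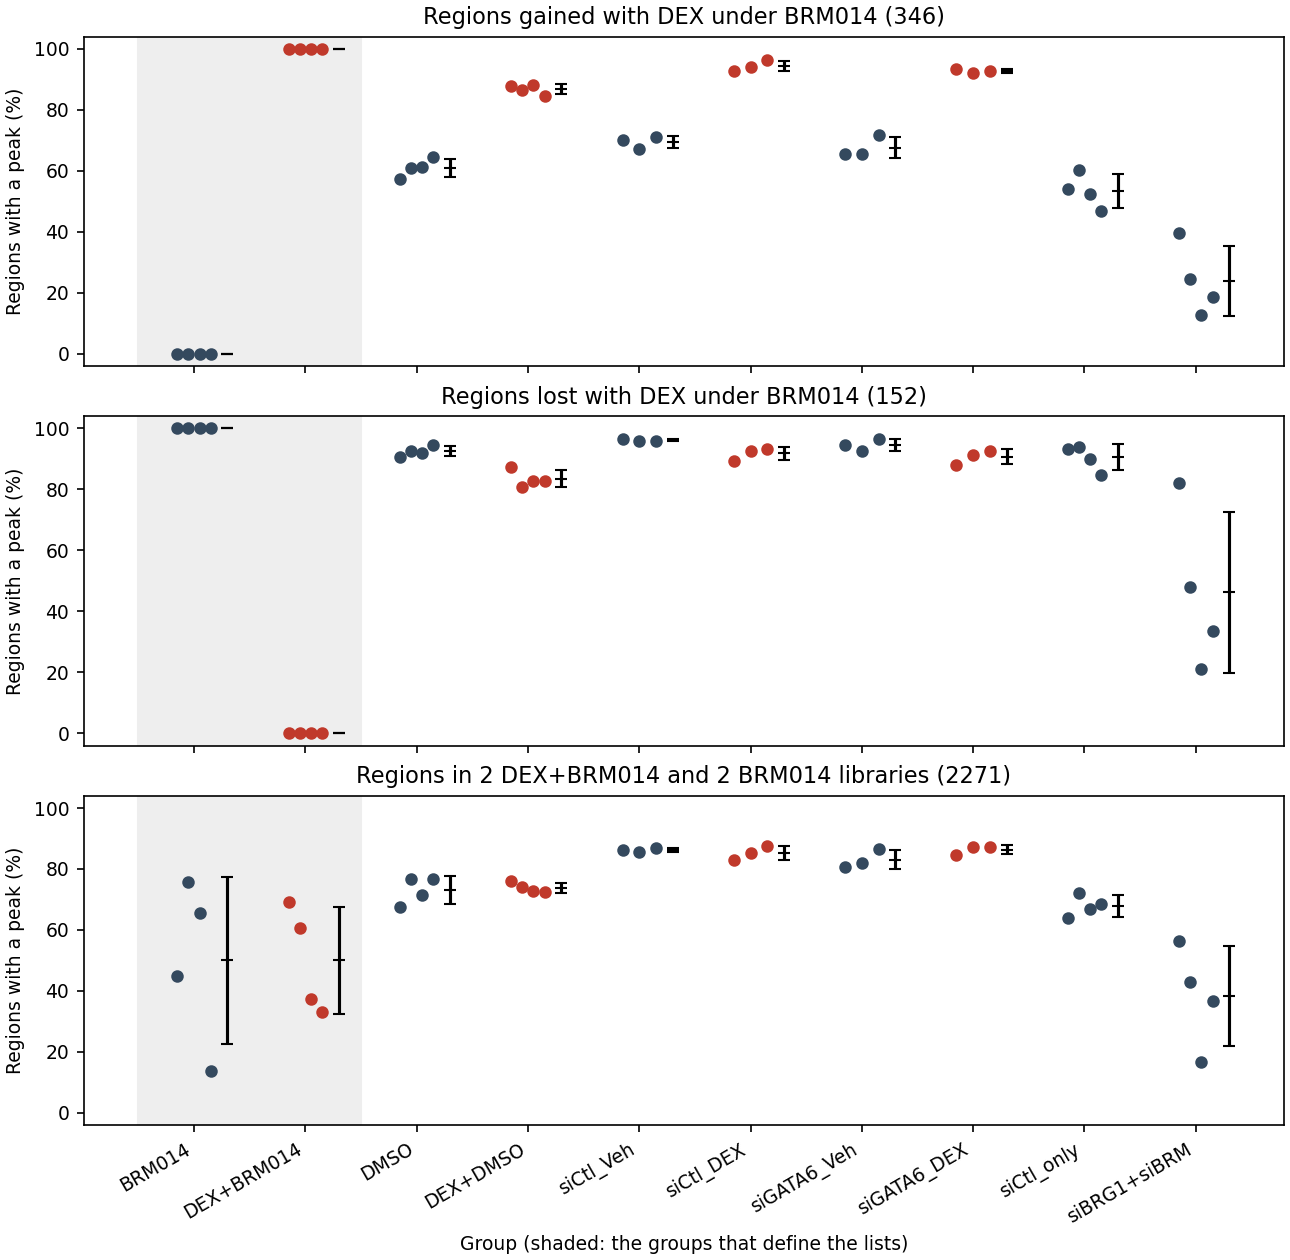
Percentage of the 346 gained, 152 lost and 2271 balanced regions with a peak in each library, by group, with red points for libraries with DEX, and bars for the mean ± SD of the group. The shaded groups chose the lists, so their 0 and 100% are fixed, and outside them the gained regions are more often present with DEX in all 3 pairs of groups.

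Gained regions fell into classes by their state in the DMSO arm. A total of 154 (44.5%) were present in all 8 DMSO and DEX+DMSO libraries, which is near the 48.2% of all 102409 regions and the 40.0% of the balanced regions. Another 50 (14.5%) were present in all 4 DEX+DMSO and no DMSO library, against 0.622% of all 102409 regions and 0.264% of the balanced ones. A further 14 (4.05%) were in no library of the DMSO arm, against 23.2% of all and 4.62% of the balanced regions, and 128 showed other patterns. The called regions of both arms overlapped in 42 cases, which is 12.1% of the 346 and 1.66% of the 2530. The lists of lost regions overlapped in 2 cases, 1.32% of the 152 and 0.274% of the 729. Of the 152 lost regions, 108 (71.1%) were in all 8 libraries of the DMSO arm, against the 48.2% of all regions. Another 2 (1.32%) were closed by DEX there, against 0.214%, and 4 (2.63%) were in none, against 23.2%.

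At 2 h, the classes are given as a description, without a test. The 50 regions opened by DEX in DMSO had a peak for 14.0 ± 5.29% in siCtl_Veh and 98.0 ± 2.00% in siCtl_DEX libraries (SD, n = 3). The 154 regions open throughout the DMSO arm were at 99.6 ± 0.750% and 99.8 ± 0.375%. The 14 regions absent from the DMSO arm were in no siCtl_Veh and no siGATA6_Veh library. Of them, 11 were in at least 1 siCtl_DEX and 8 in at least 1 siGATA6_DEX library. The same counts over all regions absent from the DMSO arm are not given here. Of the 14, 4 were in all 3 siCtl_DEX libraries. Those 4 lay inside SEMA3D, NAA25, ZFAND5 and AFG2A, genes named after their values were seen. Over the gained list 66 regions (19.1%) had opened at 2 h in siCtl cells, against 0.844% of all 102409 regions, and 39 of these were among the 50 opened in DMSO.

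The share of gained regions with a peak was lower after knockdown of both ATPases, as was that of other regions. It was 54.0, 60.4, 52.3 and 46.8% in siCtl_only and 39.6, 24.6, 12.7 and 18.5% in siBRG1+siBRM libraries, without overlap (difference -29.6 points, two-sided exact permutation p = 0.0286, adjusted p = 0.0457, n = 4 per group). Without siCtl_only replicate 1, 2, 3 or 4 the difference was -29.3, -27.2, -29.9 and -31.7 points (exact permutation adjusted p = 0.0914). Peaks as a whole were fewer after knockdown, at 50934 ± 12122 against 85769 ± 2782 per library (SD, n = 4). The share over all 102409 regions went from 59.6 ± 1.34% to 43.6 ± 8.46%, and that of the 2271 balanced regions from a mean of 67.9% (63.9 to 72.3%) to 38.2% (16.8 to 56.4%). The gained regions went from 53.4 ± 5.60% to 23.8 ± 11.6%, so the fall in points was of the same size in the balanced regions. Within the gained list, the 154 regions open throughout the DMSO arm went from 92.4 ± 4.81% to 36.7 ± 20.2%, and the 50 opened by DEX were at 4.50 ± 3.42% and 4.00 ± 1.63% in these cells without DEX.

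The gained region that ranked best in the DEX+BRM014 libraries lay 25.1 kb from ZNF217, a zinc-finger oncogene amplified in breast cancer (chr20:53622614-53622926). Its percentiles were 83.0, 91.1, 88.4 and 89.0 in the 4 DEX+BRM014 libraries. It was in all DEX+DMSO and siCtl_DEX libraries and in no DMSO, siCtl_Veh, siCtl_only or siBRG1+siBRM library. The next lay 33.5 kb from ZEB2, a repressor that drives epithelial-mesenchymal transition (chr2:144553378-144553788), with percentiles of 83.5, 70.1, 75.2 and 67.9. Unlike the ZNF217 region it was present in all 8 libraries of the DMSO arm and all 4 siCtl_only libraries, and in no siBRG1+siBRM library. The third lay inside BIRC3, an apoptosis inhibitor gene that both NF-kB and glucocorticoids induce (chr11:102320799-102320957), with percentiles of 72.1, 71.8, 71.8 and 65.7, and like the ZNF217 region it had no peak in DMSO, siCtl_Veh or siCtl_only libraries.

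The rest of the 12 best-ranked gained regions divided in the same way. RAB27B, a Rab GTPase of vesicle secretion, held one inside the gene (chr18:54777269-54777508), as did LEKR1 (chr3:156906374-156906623), and one lay 81.3 kb from VAPA. These 3 were in 4 DEX+DMSO and no DMSO library. The regions nearest RAD51B, PDZD2, DAB2, ABCC2, PARD3 and MME were in all 8 libraries of the DMSO arm, as was the ZEB2 region, 7 of the 12 in all. Of the 12, 8 were in no siBRG1+siBRM library, but only 3 were in all 4 siCtl_only libraries. Neither of these groups received DEX, so the 8 do not measure a loss with knockdown. The median of the mean percentile over the gained list was 31.1, so these 12, at 87.9 down to 64.0, are the upper end of a list made mostly of weaker peaks.

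The best-ranked lost regions were of 1 kind. All 12 were present in all 8 libraries of the DMSO arm, in 3 of 3 siCtl_Veh and siCtl_DEX libraries and in all 4 siCtl_only libraries. The first, 225 kb from the gasdermin gene GSDMC (chr8:129480195-129480646), had percentiles of 60.7, 65.3, 72.7 and 59.2 in the BRM014 libraries. The others lay nearest ADAM28, ZFHX4, LOC124901415, SNX16, TRIO, PABPC4L, MYC, VAV3, SETBP1, PDGFC and SARAF, with mean percentiles from 55.7 down to 48.5. The region assigned to MYC lay 771989 bp from the gene. Of the 12, 6 lay on chromosome 8, which had 15 lost and 19 gained regions among 7649 (0.196% and 0.248%).

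Known glucocorticoid targets were examined through a list of 40 genes, all found in the annotation. A gained region lay within 50 kb of 7 of them (17.5%) and a lost region within 50 kb of 1 (2.5%). Among all 19181 protein-coding genes with a region of these libraries nearby, 2.51% had a gained and 0.74% a lost one. Listed genes had more regions nearby, with a median of 13 against 9 over all genes. In the DMSO arm 21 of the 40 (52.5%) had a gained region within 50 kb, against 14.7% of 19528 protein-coding genes.

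The 7 genes were BIRC3, CRISPLD2, KLF9, PDK4, SCNN1A, ZBTB16 and ZFP36. Inside ZBTB16, which encodes a zinc-finger repressor, 1 region was gained (chr11:114179284-114179527), with percentiles of 56.1, 40.0, 42.2 and 41.3 in the DEX+BRM014 libraries. It was in all 4 DEX+DMSO, 1 DMSO, all 3 siCtl_DEX and no siCtl_Veh libraries. The KLF9 region 24.1 kb from the gene (chr9:70438627-70438847) had percentiles of 37.3, 32.0, 30.0 and 35.4, and was in all 4 DEX+DMSO and no DMSO libraries. A region 0.7 kb from ZFP36, which encodes the mRNA-decay factor tristetraprolin (chr19:39409989-39410223), had the same pattern in the DMSO arm. It also counted for RPS16, a ribosomal protein gene within 50 kb. The intragenic BIRC3 region was likewise in all 4 DEX+DMSO and no DMSO libraries.

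The other 4 regions of these 7 genes had a peak in at least 1 DMSO library, as the ZBTB16 region did. The regions 12.5 kb from PDK4, a kinase that shuts down pyruvate dehydrogenase (chr7:95608821-95609182), 37.6 kb from BIRC3 (chr11:102279791-102279982) and inside CRISPLD2, a secreted anti-inflammatory protein (chr16:84832572-84832848), were in all 8 libraries of the DMSO arm. The region 8.8 kb from SCNN1A, a subunit of the epithelial sodium channel, lay inside the TNF receptor gene TNFRSF1A (chr12:6338017-6338132) and was in 1 DMSO and 3 DEX+DMSO libraries. The lost region of the list lay 35.1 kb from CITED2, a transcriptional coregulator gene, and nearer to TXLNB (chr6:139336670-139336823). It was in all 4 DMSO and 2 DEX+DMSO libraries.

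**Figure D4:**
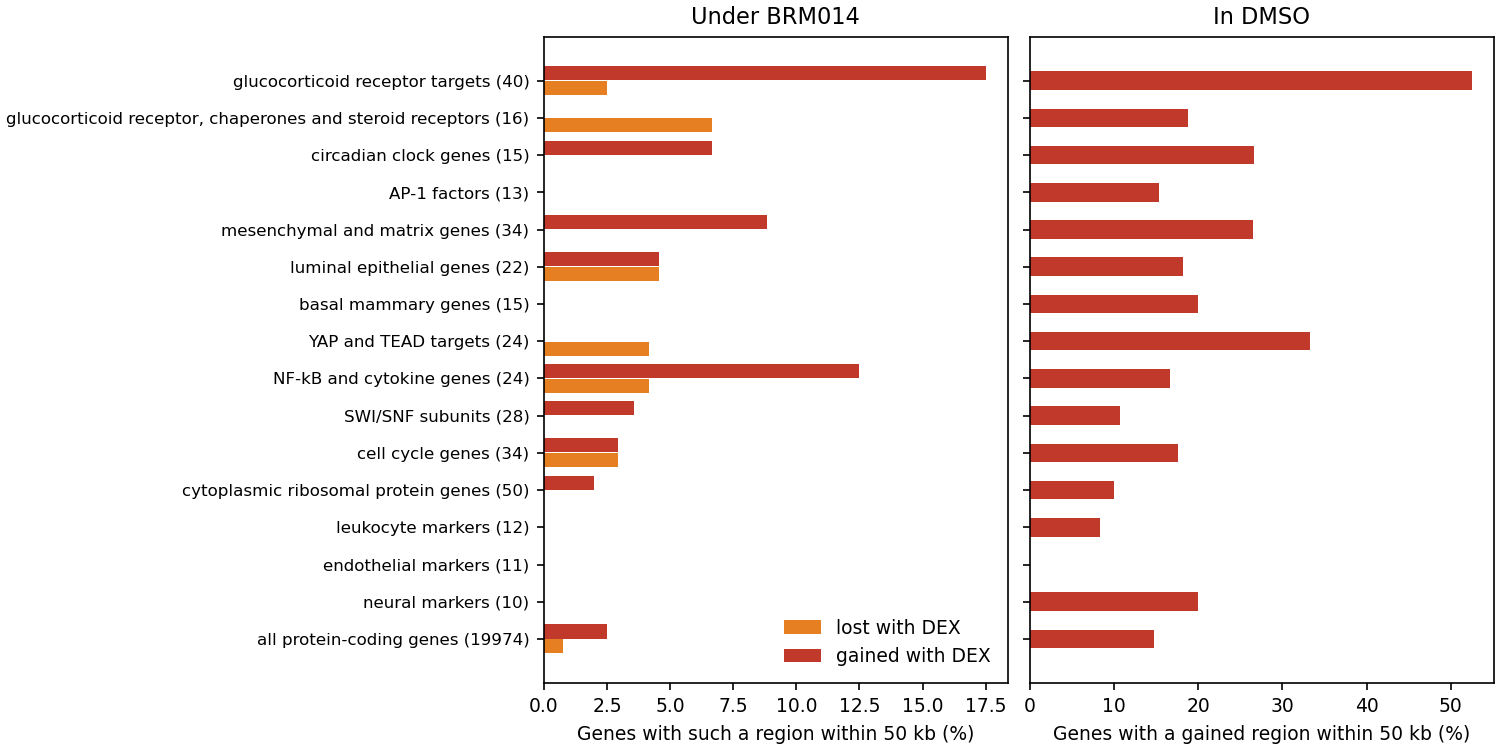
Percentage of the genes of each list, with its size in brackets, that had a region gained (red) or lost (orange) with DEX within 50 kb, under BRM014 at left and, for gained regions, in DMSO at right, on separate scales. Glucocorticoid receptor targets stand at 17.5% under BRM014 and 52.5% in DMSO, against 2.51% and 14.7% of all protein-coding genes.

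Loci of known targets chosen by name are described here, and differences between them were not tested. Over all 2530 regions gained in DMSO, 79.3% were in no DEX+BRM014 library. FKBP5 encodes a co-chaperone that restrains the receptor. Within 50 kb of it 7, 11, 11 and 8 peaks were called in the DMSO libraries and 27, 26, 26 and 22 in the DEX+DMSO libraries. With the inhibitor there were 4, 5, 7 and 2 without DEX and 13, 11, 9 and 5 with DEX, so the ranges overlapped. None of its 21 regions was gained by the rule, and of its 9 regions gained in DMSO, 5 were in no DEX+BRM014 library, 1 in 1, 1 in 2 and 2 in 3. TSC22D3 encodes GILZ, a leucine-zipper protein that dampens inflammation. It had 5 regions gained in DMSO, and all 5 were in no DEX+BRM014 library. Its peaks numbered 7, 6, 4 and 4 with DEX+BRM014 and 5, 6, 5 and 4 with BRM014, with overlapping ranges.

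ZBTB16 had 13, 11, 11 and 12 peaks in the DEX+BRM014 libraries and 9, 10, 10 and 8 in the BRM014 libraries, without overlap, below the 34, 31, 33 and 29 of the DEX+DMSO libraries. Of its 8 regions gained in DMSO, 6 were in no DEX+BRM014 library. For DUSP1, a phosphatase that switches off MAP kinases, no region met the rule. A region 1.3 kb from the gene (chr5:172766594-172766910) was in 4 DEX+BRM014 and 1 BRM014 libraries. Its counterpart in DMSO was gained, in 4 DEX+DMSO and no DMSO libraries. ERRFI1, a feedback inhibitor of EGFR, PER1, a clock gene, and DDIT4, an inhibitor of mTOR signalling, had no gained region under BRM014. In DMSO they had 2, 0 and 5 gained regions, so PER1 had none that could be kept. An ERRFI1 region (chr1:8007030-8007218) was in 4 DEX+BRM014 and 1 BRM014 libraries, and in 1 DEX+DMSO and 2 DMSO libraries. At DDIT4 1 region (chr10:72248937-72249069) was in 3 DEX+BRM014 and no BRM014 libraries. Within 50 kb of the neighbouring gene ANAPC16, a subunit of the anaphase-promoting complex, 1 region (chr10:72173342-72173534), which lay inside ASCC1, was gained. It was in 3 DEX+DMSO and no DMSO libraries. NR3C1, SMARCA4, SMARCA2 and GATA6 had neither a gained nor a lost region within 50 kb. In DMSO only GATA6 of these had a gained region, 1, which was in no DEX+BRM014 library.

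**Figure D5:**
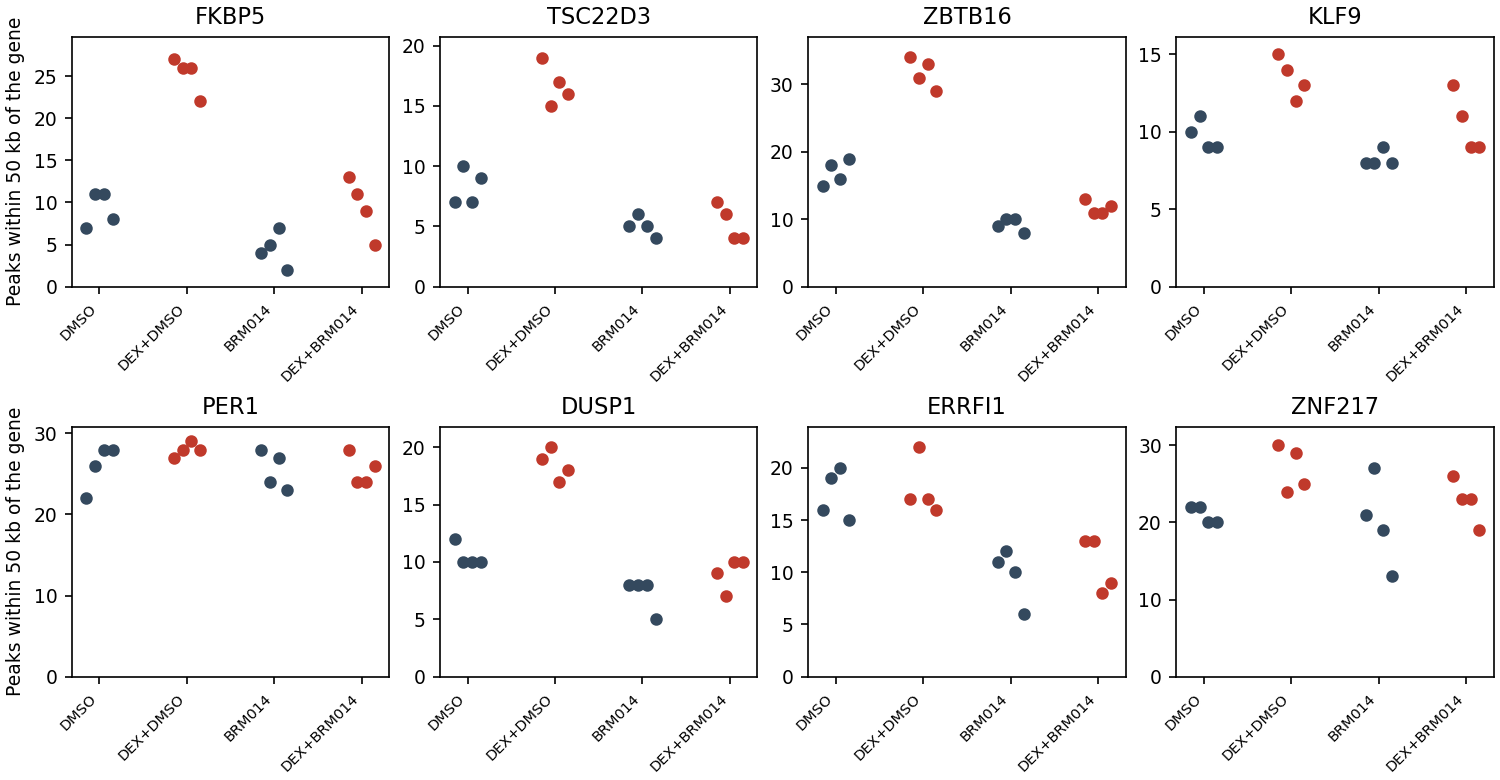
Peaks called within 50 kb of 8 genes in each library of the 4 groups treated for 4 h, with red points for libraries with DEX. At FKBP5 the DEX+DMSO libraries hold 22 to 27 peaks, the DEX+BRM014 libraries 5 to 13 and the BRM014 libraries 2 to 7.

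ZNF217 was among the 4 genes with 3 gained regions within 50 kb, the highest number. The others were BCAR3, an adaptor of p130Cas signalling, SLC38A2, an amino acid transporter, and ZFAND5, a regulator of the proteasome. The further 2 regions at ZNF217 (chr20:53563706-53564047 and chr20:53580988-53581108) were each in 1 of 4 DEX+DMSO libraries. They were in 3 and 2 of 3 siCtl_DEX libraries. ADAP1, AHR, BIRC3, CSNK1A1, KDF1 and LOC124903162 had 2 gained regions each. AHR encodes the aryl hydrocarbon receptor, and 1 of its regions (chr7:17275864-17276025) was in 4 DEX+DMSO and no DMSO libraries while the other (chr7:17358965-17359225) was in no library of the DMSO arm.

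Among the other gene lists, gained regions lay near 3 of 24 NF-kB and cytokine genes (12.5%) and 3 of 34 mesenchymal and matrix genes (8.82%). The share of all protein-coding genes was 2.51%. In the DMSO arm these lists stood at 16.7% and 26.5%, against 14.7% of all protein-coding genes. Their genes had a median of 11.5 and 11 regions nearby, against 9 over all genes. The NF-kB and cytokine genes were BIRC3, also counted among the glucocorticoid targets, the chemokine gene CXCL1 and the adhesion molecule gene ICAM1. The region counted for ICAM1 lay 3.6 kb from it, inside ICAM5. The region 1.0 kb from CXCL1 (chr4:73868345-73868489) was in 1 DMSO and no DEX+DMSO library, and at 2 h in no siCtl_Veh, 1 siCtl_DEX, no siGATA6_Veh and 2 siGATA6_DEX libraries. The mesenchymal genes were ZEB2, the actin-binding CALD1 and the integrin gene ITGB1. The regions inside CALD1 (chr7:134919188-134919373) and ITGB1 (chr10:32953086-32953338) were in no DMSO library and in 4 and 3 DEX+DMSO libraries. A further 5 lists had 1 such gene each, among 15 clock, 22 luminal, 28 SWI/SNF, 34 cell cycle and 50 ribosomal protein genes. These shares, from 2 to 6.67%, rest on single genes, and those of the SWI/SNF (3.57%), cell cycle (2.94%) and ribosomal protein lists (2%) are near the 2.51% of all genes. No AP-1, basal mammary, YAP and TEAD target, or marker gene of leukocytes, endothelium or neurons had a gained region, nor had a gene of the list of the receptor, its chaperones and the steroid receptors.

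IRF1, an interferon-induced transcription factor gene, had 3 lost regions within 50 kb, the highest number of any gene. Those 0.5 kb (chr5:132481082-132481225) and 0.2 kb (chr5:132481300-132481496) from the gene were in 1 and 0 of 4 DMSO and in no DEX+DMSO library. The one 7.5 kb away (chr5:132498192-132498423) was in 4 DMSO and 3 DEX+DMSO libraries. BCHE, HPRT1, MYLK4, PDGFC, PLAC1 and ZNF385D had 2 lost regions each. Further listed genes with 1 lost region, in lists where that gene was the only one (2.94 to 6.67%, against 0.74% of all protein-coding genes), were NCOR1, a corepressor, MCM5, a replication helicase subunit, ESRP1, an epithelial splicing factor, and ASAP1, from the YAP and TEAD target list. The MCM5 region (chr22:35394949-35395523) lay 4.9 kb from that gene and nearer to HMOX1, at 1029 bp. It was in 2 DMSO and no DEX+DMSO libraries. The NCOR1, ESRP1 and ASAP1 regions were in all 8 libraries of the DMSO arm, and the ESRP1 region lay inside DPY19L4.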

How the data were processed

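Each library was deposited as a peak list, with peaks called in each library on its own. The tools MACS2, HOMER, SAMtools and bcl2fastq and the build GRCh38 (hg38) are named, per the submitters' processing notes. For the aligner, read shift and duplicate handling the sources used here give nothing. The labels' protocols state paired-end sequencing with reads of 50 bp. Read counts per region were not analysed here, so depth is known only roughly, through the background level. The deposited files give, per peak, a score, a fold enrichment ratio over the library's own background, and −log10 p and −log10 q values computed by the authors' caller. The lowest −log10 q is close to 1.3, that is q of 0.05. These values were used only to rank or filter peaks within 1 library.

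Peaks on chromosomes 1 to 22 and X were merged where they overlapped. Shares of regions with a peak were compared over libraries by two-sided exact permutation tests, with Benjamini-Hochberg adjustment over 8 tests of 4 against 4 and 6 of 3 against 3. A peak or region over 1000 bp from an annotated start was called distal. Start sites came from RefSeq (34961 from the promoter table, and both ends of 10956 genes without an entry), and genes were assigned within 50 kb. Promoter windows on chromosome 8 were not used here. The members, the 15 gene lists and the tests were chosen with earlier results of these data known. Named genes were 14 glucocorticoid and remodeller loci, the list members with called regions (all glucocorticoid targets, up to 4 of other lists), the 12 best-ranked regions of each direction, the 10 genes with most regions, and 10 regions each of the DMSO-arm gained list kept or missing. Python 3.11.15, numpy 2.4.6, pandas 2.3.3, scipy 1.17.1 and matplotlib 3.10.9 were used. The calling was run on simulated data with changes set to meet the rule, and the exact tests on made-up values. The number of false calls was not measured. The main tests did not use the replicate number as a block, and results with that block are given below. Deviations of same-numbered libraries correlated at 0.0997 at most. The highest correlation of any pair was between same-numbered libraries with BRM014 (0.0366), DMSO (0.00803), siCtl (0.0997) and siGATA6 (0.0657). After ATPase knockdown it was not (0.0406, against 0.0294 for same-numbered libraries). Whether the number marks libraries made together was not tested. Alternatives were a stricter q, equal peak numbers, coverage of at least 50% of a region, summit windows, at least 3 of 4 libraries, 5000 bp for distal, other gene distances and leaving out each library.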

Additional observations from a re-analysis of the deposited data

How the results depend on the processing

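The comparisons of region lists kept their direction under every alternative run. A stricter q, equal numbers, the coverage rule and leaving out a library can only remove peaks from the named regions. Those regions could therefore not change direction under these settings, and only whether they were still called is given. With at least 3 of 4 libraries against 0 of 4 there were 1101 gained and 814 lost regions, and with equal numbers of best peaks 236 lost. Equal numbers also turned the difference in distal share to -0.782 points (exact permutation p = 0.0571, n = 4) and brought the DMSO-arm lost regions past the threshold at -1.71 points. At −log10 q of at least 5 and with equal numbers, 18 of the 27 named gained regions were still called, and 15 and 13 of the 20 lost ones. Within 10 kb, 0 glucocorticoid targets had a lost region. Depth is not given by peak lists, and a region without a peak may lie just under the caller's threshold.

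Leaving out 1 library gave 370 to 644 gained and 189 to 627 lost regions, differences of -2254 to 4403 in peaks and -0.828 to 1.60 points in distal share. The first sign change of both came without BRM014 replicate 4, the second without DEX+BRM014 replicate 1 (-960 and -0.669). The share differences ran from 6.16 to 8.51 points (adjusted p 0.0457 to 0.0762) for the DMSO-arm gained and -5.91 to -2.89 for the DMSO-arm lost regions. For the gained regions they ran from 17.9 to 27.0 in DMSO, 18.1 to 25.8 against balanced regions and -34.8 to -25.8 after knockdown. For the lost regions in DMSO they ran from -10.4 to -5.74. The adjusted p reached 0.0571 for the gained regions in DMSO and 0.0914 for the lost regions in DMSO and the gained regions after knockdown. At 2 h, where 3 against 3 cannot pass the threshold, the direction stayed.

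Same-numbered libraries had correlations of deviations from -0.00 to 0.04 in the BRM014 arm (3 of 4 correlated best with their own number), 0.0211 to 0.0997 in siCtl and 0.0158 to 0.0657 in siGATA6 cells (2 of 3 each). With the number as a replicate block, the differences of 7.46, 25.8, 25.1, -9.05 and -29.6 points each had an adjusted p of 0.167 by exact permutation of signs, the smallest that 4 pairs allow here.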
